A study of Saccharomyces cerevisiae with 2 samples.

Results

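Described here are the stretches of yeast mitochondrial DNA (mtDNA) between MspI sites that carry no annotated gene, and the nuclear fragments ligated to them. They were chosen from the annotation that the deposited interaction tables give for each fragment: a mitochondrial fragment was called gene-free where it named no overlapping gene, rRNA or tRNA, and gene-bearing otherwise. Of the 171 mitochondrial fragments listed in any table, 127 were gene-free and 44 were gene-bearing. Of the 127, 92 had at least 1 uniquely mapped nuclear partner outside the ribosomal DNA (rDNA), among 132 such mitochondrial fragments in all. Another 62 of the 233 numbered mitochondrial fragments had no line in any table. They held 544 bases in all, had no annotation, and were not classed.

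Genome conformation capture (GCC) joins DNA fragments that lie close enough to be cross-linked together, and a count is 1 sequenced junction between 2 MspI fragments. A Mito-nDNA pair joins a mitochondrial fragment with a nuclear fragment outside the rDNA. The wild-type laboratory strain BY4741 was grown at 30 °C to an OD600 of 0.6 in synthetic complete medium with glycerol lactate, on which cells must respire, or with galactose, on which they respire and ferment, and fixed with 2% formaldehyde. The study combined 2 biological replicates into 1 library per medium. No error between replicates can therefore be given, and each test between the media compares 2 libraries.

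The mtDNA of budding yeast carries few genes for its size. It encodes subunits of the respiratory chain (COX1, COX2, COX3 and COB), subunits of the ATP synthase (among them ATP6 and OLI1), the ribosomal protein VAR1, the rRNAs, tRNAs and the RNA of RNase P. These are separated by long AT-rich spacers. Short GC-rich clusters, which recur in many near-identical copies, interrupt the spacers and supply many of their CCGG sites, the sequence that MspI cuts. Spacers also hold the replication origins and promoters of the molecule, which the tables do not annotate.

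Uniquely mapped Mito-nDNA counts numbered 83910 in glycerol lactate and 26312 in galactose. Gene-free fragments took 46806 of them, over 41680 pairs, in glycerol lactate. In galactose they took 12744, over 12200 pairs. The intervals below are 95% intervals and cover counting error only.

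The gene-free fragments were short. Their listed bases summed to 32897, or 38.4% of the 85779 bp of mtDNA, and their lengths ran from 7 to 1658 bp with a median of 172 bp. Gene-bearing fragments had a median of 836 bp and reached 6972 bp. Of the 127 gene-free fragments, 51 were below 100 bp, 38 were from 100 to under 300 bp, 20 were from 300 to under 600 bp, and 18 were 600 bp or longer. The same short lengths recurred: 24 fragments were 13 bp long, 5 were 16 bp, 5 were 7 bp and 3 were 35 bp. A further feature was named on 3 of the gene-free fragments, a sequence-tagged site on Mt 2326-2631 and Mt 2632-2766, and a misc_RNA on Mt 85590-85779 at the end of the sequence. The misc_RNA is an RNA feature that the rule did not count as a gene, so that fragment was kept.

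Which gene-free fragments had a nuclear partner followed their length. All 76 fragments of at least 100 bp had one in each library. The 35 without any were 7 to 35 bp long, with a median of 13 bp. Of the 13 bp fragments, 3 had a uniquely mapped partner, and of the 16 bp and 35 bp fragments none had. Among all mapped sequences, 21 of these 35 fragments did have nuclear partners and 14 still had none. Of those, 9 fragments of 13 bp each held 788 to 879 counts in glycerol lactate and 340 to 507 counts in galactose. Of the 12 fragments of 13 bp with all mapped counts alone, 1 (Mt 31055-31067) had a single count. Between any 2 of the other 11, 4.58% to 14.6% of the smaller partner list was shared in glycerol lactate and 1.69% to 12.4% in galactose.

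The 92 fragments differed widely in their counts. In glycerol lactate they held 3 to 927 counts with a median of 526.5. In galactose the 91 with any count held 6 to 362, with a median of 136. The least counted were Mt 10406-10417, a 12 bp fragment with 3 counts in glycerol lactate and 6 in galactose, and Mt 33464-33475, also 12 bp, with 5 counts in glycerol lactate and none in galactose. The other 90 fragments had at least 20 counts in each library.

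**Figure D1:**
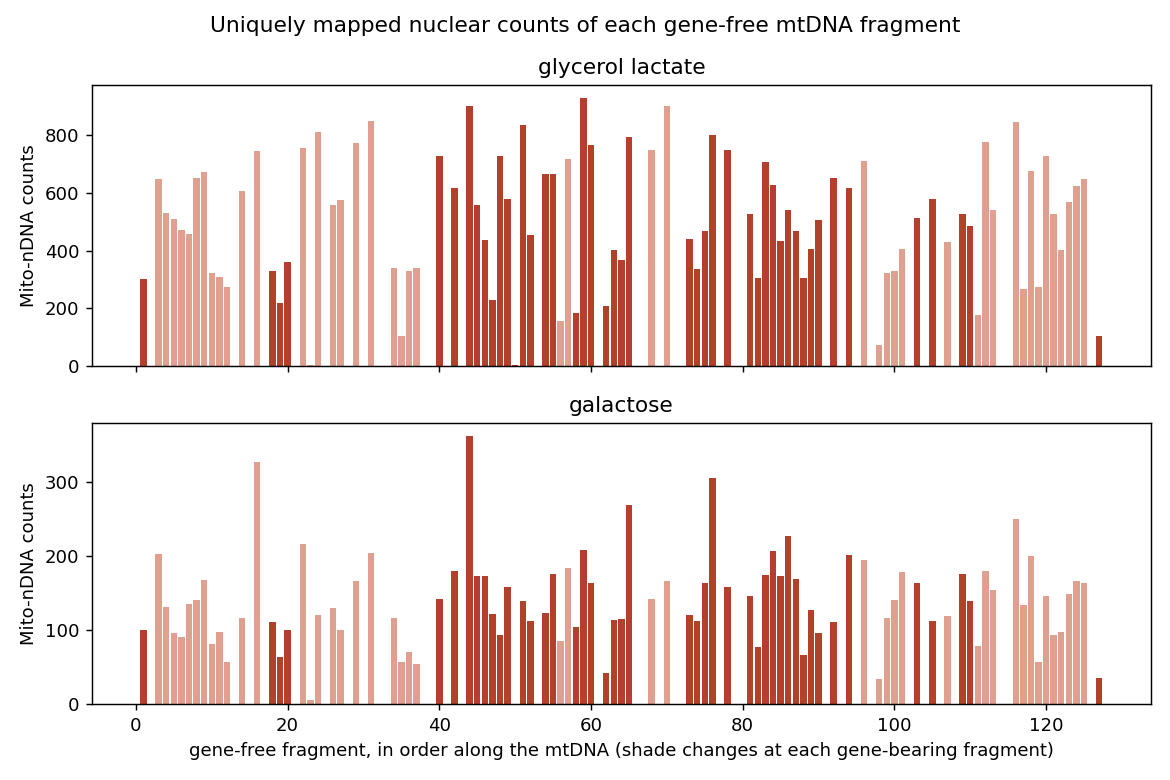
Mito-nDNA counts of uniquely mapped sequences (vertical axis) for each of the 127 gene-free fragments in their order along the mtDNA (horizontal axis), in glycerol lactate (above) and galactose (below). The shade changes wherever a gene-bearing fragment intervenes, and the empty places are the short fragments without a uniquely mapped nuclear partner.

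The fragment with the most nuclear counts in glycerol lactate was Mt 44004-44511, a 508 bp piece of the spacer between COB (cytochrome b) and OLI1 (ATP synthase subunit 9). It held 927 counts in glycerol lactate and 208 in galactose. Mt 47747-48106, downstream of OLI1, followed with 902 counts in glycerol lactate and 167 in galactose. Next came Mt 31076-32451, in the spacer downstream of ATP6, with 900 counts in glycerol lactate and 362 in galactose. These 3 differed by less than their counting error in glycerol lactate, while Mt 31076-32451 was the most counted gene-free fragment in galactose. Mt 11531-12275, in the spacer upstream of COX1, had 847 and Mt 80528-81375, downstream of COX3, had 844 counts in glycerol lactate. In galactose Mt 11531-12275 had 205 counts and Mt 80528-81375 had 250. The galactose list was otherwise made of long fragments: Mt 4565-6222 (1658 bp, upstream of the 15S rRNA) with 328 counts, Mt 51063-52346 (1284 bp, between VAR1 and the 21S rRNA) with 306, and Mt 45436-46319 (884 bp, upstream of OLI1) with 269.

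Per kb, short fragments came first. Over the 76 fragments that reach 100 bp, the density ran from 449 to 4045 counts per kb in glycerol lactate, with a median of 1760. In galactose they ran from 175 to 1479, with a median of 382. The highest in glycerol lactate were Mt 34180-34291 (112 bp) at 4045 per kb, Mt 71249-71358 (110 bp) at 3900.0, Mt 53641-53831 (191 bp) at 3691, Mt 56579-56689 (111 bp) at 3649 and Mt 56864-57044 (181 bp) at 3597. In galactose Mt 65784-65904 (121 bp) had 1479 per kb, Mt 56153-56289 (137 bp) 1234, Mt 56579-56689 1144, Mt 71249-71358 1082 and Mt 66852-67003 (152 bp) 1079. The paper places a dubious open reading frame, Q0182, on Mt 65784-65904, which the annotation used here did not name. It reports an interaction of Q0182 with the nuclear gene RSM7, measured by a separate assay in another strain. Between Mt 65784-65904 and the RSM7 fragment described below, there was no uniquely mapped count in glycerol lactate or in galactose. The lowest in glycerol lactate were Mt 4565-6222 at 449, Mt 54616-55429 at 532 and Mt 65097-65697 at 539 per kb. In galactose they were Mt 941-2099 at 175, Mt 81429-82549 at 179 and the misc_RNA fragment Mt 85590-85779 at 189. That last fragment is 190 bp long, yet it held 104 counts in glycerol lactate and 36 in galactose, the fewest among the 76 in each library.

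The share of a fragment's counts that could be placed uniquely also varied. Of the 76 fragments of at least 100 bp, 26 kept under 70% of their all mapped nuclear counts in the uniquely mapped table of glycerol lactate. They had a median of 401.5 counts. The other 50, of nearly the same median length (303 bp, against 297.5 bp), had a median of 649.5. In galactose the 37 fragments under 70% had a median of 115 counts at a median length of 363 bp, and the other 39 had 164 counts at 257 bp. Mt 85590-85779 kept 41.3% in glycerol lactate and 29.5% in galactose. Since this split uses the unique counts themselves, the medians describe the fragments and test nothing. The all mapped counts had a lower median in the first group in glycerol lactate, 636.5 against 800.0. In galactose they had a slightly higher one, 205 against 196.

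Taken as runs of neighbours uninterrupted by a gene-bearing fragment, the gene-free fragments formed 21 runs, called spacers here. The last of them was the misc_RNA fragment Mt 85590-85779. The spacer between VAR1 and the 21S rRNA (Mt 50123-57861) held the most, 8880 counts or 10.6% of Mito-nDNA counts in glycerol lactate and 2641 or 10.0% in galactose, over 24 fragments. The spacer downstream of ATP6 (Mt 29853-34939) held 7394 counts in glycerol lactate and 1958 in galactose, and that upstream of the 15S rRNA (Mt 941-6222) held 6194 in glycerol lactate and 1647 in galactose. No uniquely mapped count fell in 3 spacers, each made of a single fragment of 13 bp or less. In the other 18, the ratio of counts in glycerol lactate over galactose ran from 2.41 (2.16 to 2.68) at Mt 65063-65904, between 2 tRNA genes, to 5.34 (4.73 to 6.03) at Mt 47490-48126, downstream of OLI1. Those intervals do not overlap.

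Set against the gene-bearing fragments, the gene-free ones were denser in nuclear counts per base and sparser per fragment. They held 1423 counts per kb in glycerol lactate, against 709 for gene-bearing fragments, a ratio of 2.01 (1.98 to 2.03). In galactose they held 387 per kb against 259, a ratio of 1.49 (1.46 to 1.53). With pairs of at least 2 counts only, the galactose ratio was 1.03 (0.958 to 1.12). Per listed fragment the order turned round: 369 counts for gene-free and 843 for gene-bearing fragments in glycerol lactate, a ratio of 0.437, and 100.3 against 308 in galactose, a ratio of 0.325.

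Within length classes the density ratio lay on either side of 1. Lengths still differed at 600 bp and over, with a median of 831 bp for gene-free and 1178.5 bp for gene-bearing fragments. Among fragments of 600 bp or longer, gene-free ones had 746 counts per kb in glycerol lactate against 638 in gene-bearing ones (ratio 1.17, 1.15 to 1.19), and 238 against 241 in galactose (0.986, 0.951 to 1.02). From 300 to under 600 bp the ratio was below 1 in both libraries, 0.944 (0.913 to 0.976) in glycerol lactate and 0.749 (0.703 to 0.797) in galactose, for 20 gene-free and 7 gene-bearing fragments. From 100 to under 300 bp the densities were 2452 against 3066 per kb in glycerol lactate (interval of the ratio 0.743 to 0.861), and the ratio was 0.812 (0.699 to 0.944) in galactose, for 38 gene-free fragments and 1 gene-bearing one. Below 100 bp it was 1.81 (1.55 to 2.11) in glycerol lactate and 1.12 (0.921 to 1.37) in galactose, where 2 gene-bearing fragments had any count. The ratio over all lengths was thus larger than in either class with more than 2 gene-bearing fragments.

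**Figure D2:**
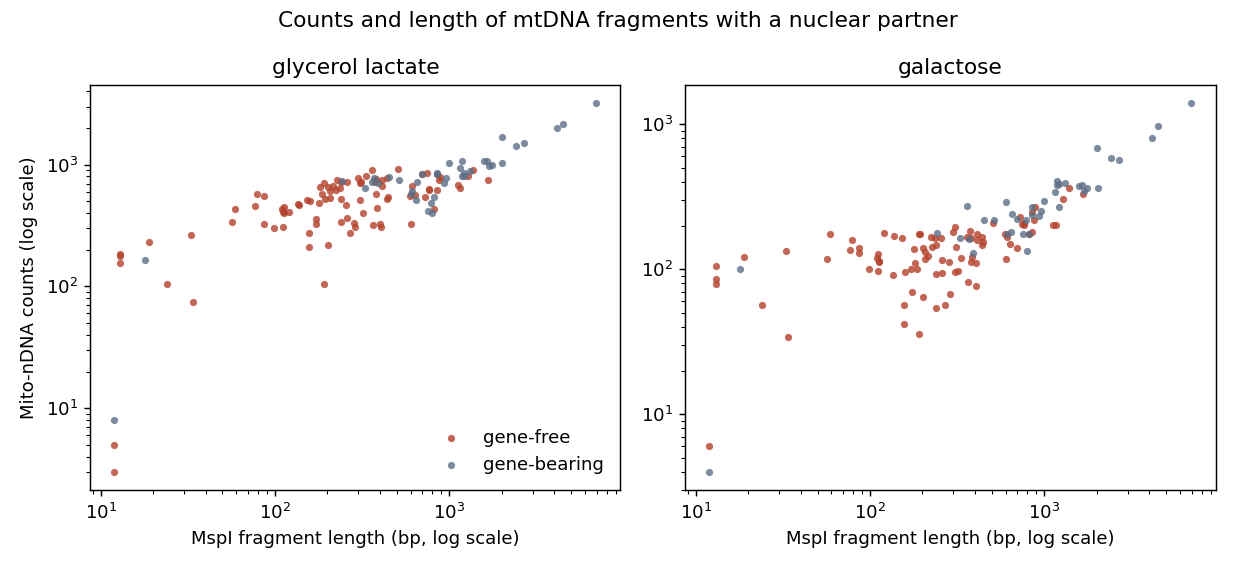
Mito-nDNA counts (vertical, log scale) against MspI fragment length in bp (horizontal, log scale) for the mtDNA fragments with a uniquely mapped nuclear partner, gene-free (red) and gene-bearing (blue-grey), in glycerol lactate (left) and galactose (right). Counts of the 92 and 91 gene-free fragments reach at most 927 and 362, and where the lengths overlap the classes lie in one cloud.

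Gene-free fragments held 55.8% (55.4 to 56.1) of all Mito-nDNA counts in glycerol lactate, against 48.4% (47.8 to 49.0) in galactose. The difference of 7.35 percentage points was larger than counting error (Fisher's exact test between the libraries, odds ratio 1.34, p = 2.0e-96). Of distinct pairs they held 56.5% in glycerol lactate and 49.0% in galactose. The ratio of counts in glycerol lactate over galactose was 3.67 (3.60 to 3.75) for gene-free fragments and 2.73 (2.68 to 2.79) for gene-bearing ones. Among gene-bearing fragments it was 3.20 for those with a tRNA, 2.57 for those with a protein gene and 2.55 for those with an rRNA. The glycerol lactate library had 3221104 uniquely mapped counts over the whole network and the galactose library 2338837. With pairs of at least 2 counts the gene-free ratio was 9.08 (8.52 to 9.67) and the difference in share 11.8 points. At the cut-off of 3 counts, added after seeing the data, that difference was 15.8 points, and among all mapped sequences the ratio was 2.90.

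The ratio between the libraries changed with fragment length. For each fragment with at least 20 counts in each library, its share of all Mito-nDNA counts in glycerol lactate was divided by its share in galactose. The median of this ratio over the gene-free fragments was 0.716 below 100 bp (14 fragments), 1.27 from 100 to under 300 bp (38), 1.27 from 300 to under 600 bp (20) and 0.979 at 600 bp and over (18). The gene-bearing fragments had a median of 1.14 from 300 to under 600 bp (7) and 0.879 at 600 bp and over (30). Within length classes, the gene-free share of counts was 71.2% in glycerol lactate against 66.2% in galactose from 300 to under 600 bp (odds ratio 1.26, Fisher's exact p = 2.6e-10). At 600 bp and over it was 28.2% against 24.8% (odds ratio 1.19, Fisher's exact p = 6.1e-16). Gene-free fragments were also the shorter ones within that class, and the part of length in this difference was not tested. Below 100 bp the gene-free share was 96.0% against 93.8% (odds ratio 1.61, Fisher's exact p = 0.00027). From 100 to under 300 bp it was 96.1% in both (odds ratio 0.985, Fisher's exact p = 0.899), with 1 gene-bearing fragment behind the comparison.

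**Figure D3:**
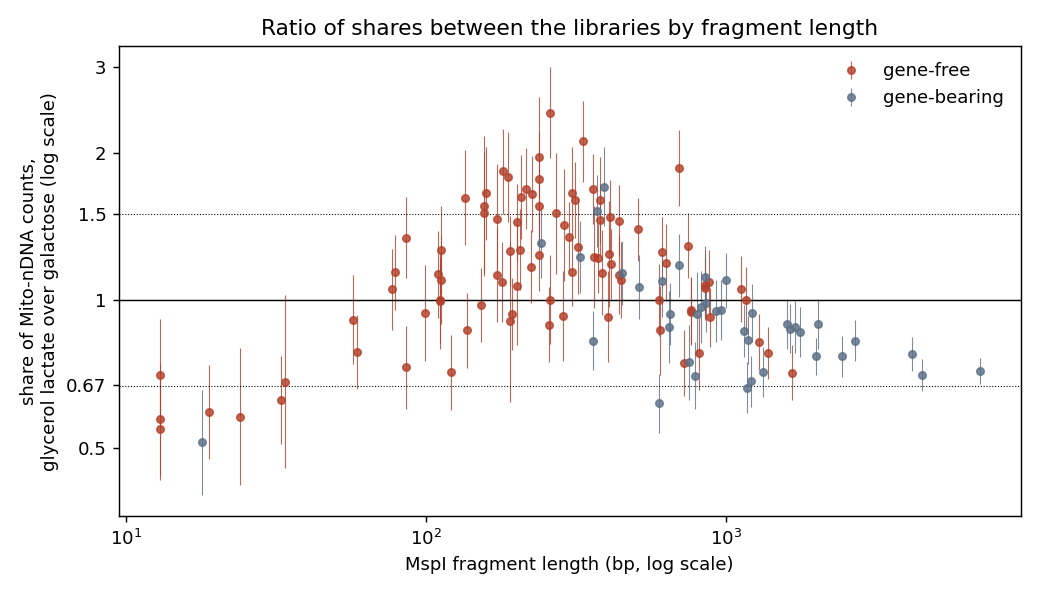
Ratio of a fragment's share of Mito-nDNA counts in glycerol lactate over galactose (vertical, log scale) against its length in bp (horizontal, log scale), for the 90 gene-free (red) and 39 gene-bearing (blue-grey) fragments with at least 20 counts in each library; bars are 95% counting intervals and dotted lines mark 1.5-fold either way. The gene-free ratios form an arch, with medians of 0.716 below 100 bp, 1.27 from there to under 600 bp and 0.979 above.

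A ratio of at least 1.5 was found in 20 of the 90 gene-free fragments. Over all 129 mitochondrial fragments tested 17.1% reached it, and among the 39 gene-bearing ones 2 did. The 20 fragments were 135 to 697 bp long with a median of 238 bp. The ratio was highest at Mt 33126-33384, downstream of ATP6, with 726 counts in glycerol lactate and 94 in galactose (ratio 2.42). Mt 10418-10750, upstream of COX1, had 811 counts in glycerol lactate and 120 in galactose (ratio 2.12, 1.75 to 2.57). These were the 2 fragments past 2-fold, and were picked out after their values were seen. The fragment just inside the limit, Mt 82550-82820, had a ratio of 1.51, and the one just outside, Mt 52367-52776, had 1.48.

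A ratio of at most 1 over 1.5 was found in 5 of the 90, where 6.2% of all 129 fragments reached it. All 5 were 13 to 33 bp long, shorter than the 38 bp reads, and what this does to their counts was not tested. They were Mt 81376-81408 (267 counts in glycerol lactate and 134 in galactose), Mt 33107-33125 (230 and 122), Mt 12361-12384 (105 and 57), Mt 35818-35830 (155 and 85) and Mt 43991-44003 (183 and 105, the lowest ratio at 0.547, 0.430 to 0.695). Short and middle fragments lay side by side: Mt 33107-33125, 19 bp long with a ratio of 0.591, directly precedes Mt 33126-33384 with the highest ratio of all.

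Gene-free fragments sent a smaller part of their contacts to the nucleus than gene-bearing fragments did. Of their counts with fragments that were not their direct neighbours on the mtDNA, 25.4% (25.2 to 25.6) went to nuclear fragments outside the rDNA in glycerol lactate, against 31.3% for gene-bearing fragments (Fisher's exact test, odds ratio 0.748, p = 1.6e-270). In galactose the values were 15.7% (15.5 to 16.0) against 23.7% (23.4 to 24.1), odds ratio 0.600, Fisher's exact p = 4.0e-300. Most of the rest stayed within the mtDNA, 73.3% for gene-free against 67.3% for gene-bearing fragments in glycerol lactate, and 83.4% against 75.2% in galactose. A contact between 2 mitochondrial fragments counts once for each of them here. Within a class it thus enters 2 times, and between the classes it enters both. The intervals and tests of these shares take such counts as independent, which they are not. Neighbours were told by fragment number, so listed fragments on either side of an unlisted one counted as not adjacent. Runs of bases without a listed fragment were at most 28 bp, and 37 of the 62 unlisted fragments lay between 2 gene-free ones. What this does to the shares was not tested. The rDNA took 0.579% of gene-free counts in glycerol lactate and 0.301% in galactose, and the 2-micron plasmid, a circular nuclear plasmid of yeast, took 0.746% in glycerol lactate and 0.524% in galactose. These are uniquely mapped counts, and the rDNA is a repeat, so its share here can miss contacts that map to more than 1 place. In the paper, Mito-rDNA interactions were the larger part of the significant interactions between the 2 genomes in both media.

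In percentage points, the difference in nuclear share was smaller with nearby mtDNA partners left out, in glycerol lactate more than in galactose. The nuclear shares themselves rise when partners are left out, so points at different settings are not on one scale. Partners within 10 kb along the mtDNA took 64.5% of gene-free counts against 57.0% of gene-bearing counts in glycerol lactate, and 75.5% against 66.1% in galactose. With only mitochondrial partners over 10 kb away kept in the comparison, a choice made after seeing the data, the nuclear share of gene-free minus gene-bearing fragments was -1.15 percentage points in glycerol lactate, in place of -5.88. In galactose it was -5.91 points, in place of -7.98. With all mitochondrial partners left out, also a choice made after seeing the data, it was -0.449 points in glycerol lactate and -0.730 in galactose. With pairs of at least 2 counts the difference was -3.53 points in glycerol lactate and -2.11 in galactose.

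The nuclear partners of gene-free fragments were many and seldom repeated, as were those of gene-bearing fragments. In glycerol lactate they covered 12216 of the 13593 listed nuclear fragments (89.9%), and in galactose 7781 (57.2%). Gene-bearing fragments covered 82.6% in glycerol lactate and 56.8% in galactose. A single count made up 89.2% of gene-free pairs in glycerol lactate, against 87.0% of gene-bearing pairs. In galactose it made up 95.8% of gene-free against 94.0% of gene-bearing pairs. Each gene-free fragment had a median of 466 different nuclear partners in glycerol lactate and 127 in galactose, the most being 817 and 344. The same pair was rarely met in both libraries: 538 pairs were shared, which is 1.29% of those in glycerol lactate and 4.41% of those in galactose. Of gene-bearing pairs 1501 were shared, or 4.67% of those in glycerol lactate and 11.8% of those in galactose. Of pairs with at least 2 counts, 7 were shared, out of 4495 in glycerol lactate and 516 in galactose, against 39 gene-bearing pairs out of 4161 and 766. Gene-bearing fragments held more counts each, and the part of this in the overlap was not tested.

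The study's methods set 3 counts as the level above noise. In glycerol lactate 549 gene-free pairs, summing to 1729 counts, reached it, and in galactose 26 pairs, summing to 80. Gene-free pairs made up a smaller share at this level than among all pairs. They made up 45.4% (42.7 to 48.3) of the 1208 Mito-nDNA pairs of at least 3 counts in glycerol lactate and 34.2% (24.5 to 45.4) of the 76 in galactose. The share of pairs reaching 3 counts was 1.32% for gene-free against 2.05% for gene-bearing pairs in glycerol lactate (Fisher's exact test, odds ratio 0.637, p = 9.0e-15), and 0.213% against 0.394% in galactose (odds ratio 0.541, p = 0.011). With all mapped sequences the galactose shares were 1.24% for gene-free against 1.19% for gene-bearing pairs (odds ratio 1.04, Fisher's exact p = 0.737).

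By length, the deficit in glycerol lactate was found in long fragments. At 600 bp and over, 1.21% of gene-free pairs and 2.21% of gene-bearing pairs reached 3 counts. From 300 to under 600 bp it was 1.52% against 1.26%. In galactose gene-free pairs were lower in both classes: 0.295% against 0.407% at 600 bp and over, and 0.109% against 0.362% from 300 to under 600 bp. The latter rests on 3 gene-free and 5 gene-bearing pairs. Below 300 bp no gene-bearing pair reached 3 counts in galactose, while some gene-free pairs did. Gene-bearing fragments of 600 bp and over held 1041 counts each on average in glycerol lactate and gene-free ones 680.0.

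The strongest gene-free pair in glycerol lactate was also 1 of the 2 with the highest count in galactose. Mt 35831-36204, the 374 bp fragment between a tRNA gene and COB, was joined to chromosome IV 148883-150228, which overlaps YDL173W and GLT1, the gene of glutamate synthase. It had 8 counts in glycerol lactate and 4 in galactose, and 94 and 51 counts among all mapped sequences. In glycerol lactate this nuclear fragment was also joined to Mt 65097-65697 with 5 counts and to 7 further gene-free fragments with 1 count each. It thereby had the highest sum over gene-free fragments, 20 counts, beside 4 counts with gene-bearing ones. In galactose Mt 35831-36204 was its only gene-free partner, and it had 2 counts with gene-bearing fragments.

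Next in glycerol lactate was Mt 84270-84492, downstream of COX3, with chromosome X 638757-640424, which overlaps RSM7, the gene of a protein of the small mitochondrial ribosomal subunit, and YJR115W. This pair had 6 counts in glycerol lactate and 2 in galactose. The same nuclear fragment had more counts with gene-bearing mtDNA: 14 counts with gene-free and 28 with gene-bearing fragments in glycerol lactate, and 8 with gene-free and 39 with gene-bearing fragments in galactose. Its gene-free partners numbered 7 in glycerol lactate and 6 in galactose.

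At 5 counts in glycerol lactate and 0 in galactose came Mt 3085-3697 with chromosome XVI 707730-708300 (YPR084W), Mt 11072-11510 with chromosome V 150573-151173 (IRC22) and Mt 34528-34939 with chromosome XIV 547051-547531 (YNL042W-B). In galactose Mt 2787-2863, a 77 bp fragment, had 4 counts with chromosome VII 483508-483527, a 20 bp fragment without a gene, and 3 counts with chromosome VII 114335-114370, a 36 bp fragment in KEX1, the gene of a protease of the secretory pathway. Neither pair had a count in glycerol lactate. Mt 11531-12275 with chromosome IV 1179206-1182320 (SBE2 and YDR352W) had 1 count in glycerol lactate and 3 in galactose, and Mt 2632-2766 with chromosome X 54905-55027 (ECM25) had 0 and 3. Of the 7 pairs with at least 2 counts in both libraries, Mt 44004-44511 with chromosome VIII 517948-519203 had 2 in each. That nuclear fragment overlaps BAT1, the gene of the mitochondrial branched-chain aminotransferase, and the pair was picked out after its values were seen.

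Summed over all gene-free fragments, no nuclear fragment stood far above the others. After the GLT1 fragment came chromosome IV 562957-565043, which overlaps PST1, a gene of a cell wall protein, and YDR056C, with 19 counts over 12 gene-free fragments in glycerol lactate and 1 in galactose. Chromosome XVI 830252-832062 (NCE102, SUE1 and URN1) had 17 counts over 14 gene-free fragments in glycerol lactate and 1 in galactose. In galactose the first was chromosome XI 316616-320211, which overlaps YET1 and MNR2, a gene of a vacuolar magnesium transporter, with 8 counts in glycerol lactate and 9 in galactose. Chromosome X 144851-146958 (SFH5 and YJL144W) had 3 counts in glycerol lactate and 8 in galactose.

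By chromosome, the partners of gene-free fragments followed chromosome length. Across the 16 chromosomes, with the rDNA left out of chromosome XII, Pearson's r between share of counts and length was 0.993 in glycerol lactate and 0.995 in galactose, as a description. These values are over all gene-free counts, and most pairs had a single count. For all mtDNA and only interactions above its noise level, the paper reports a high correlation in glycerol lactate but not in galactose. It ascribes this mainly to chromosome X. The share of counts over the share of length was lowest for chromosome X in glycerol lactate (0.863) and chromosome I in galactose (0.838), and highest for chromosome VI in both (1.08 in glycerol lactate and 1.09 in galactose). Gene-free and gene-bearing fragments did not divide their counts differently among chromosomes past the threshold: 0 of 16 chromosomes (0%) had an adjusted p under 0.05 in glycerol lactate and 0 of 16 (0%) in galactose (Fisher's exact test with Benjamini-Hochberg adjustment). At an unadjusted p under 0.05 there were 3 in glycerol lactate, chromosomes II, X and XIV, and 0 in galactose. The ratio of the gene-free over the gene-bearing share ran from 0.930 (II) to 1.09 (I) in glycerol lactate, and from 0.862 (I) to 1.09 (II) in galactose. Chromosomes I and II thus held opposite ends in the 2 libraries.

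**Figure D4:**
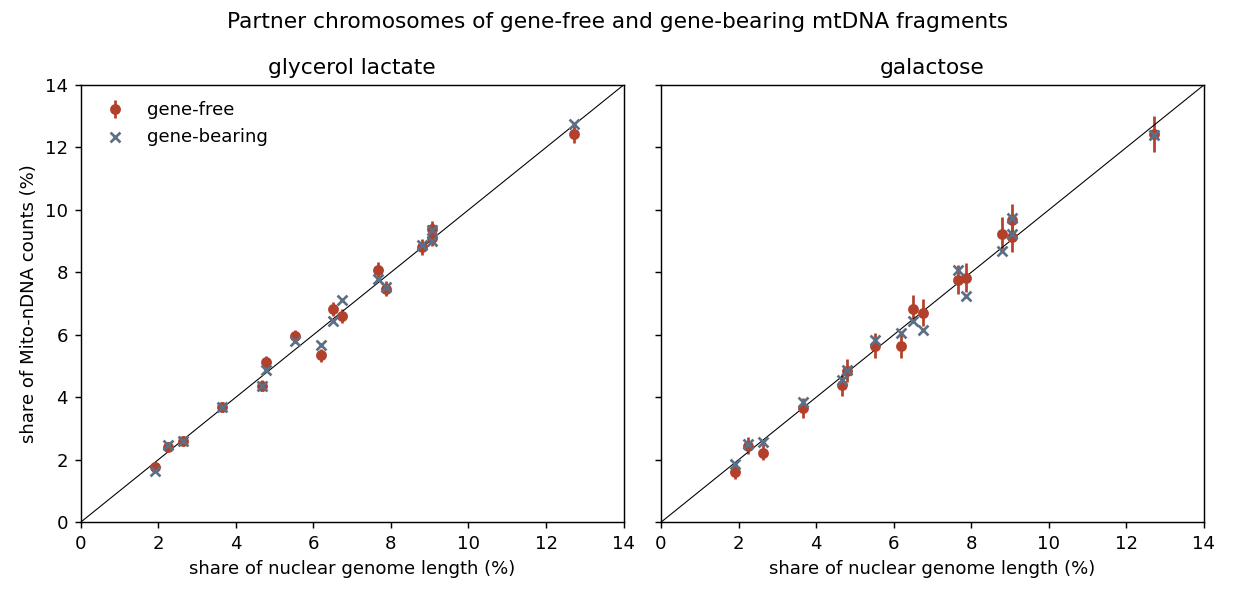
Share of Mito-nDNA counts per nuclear chromosome in percent (vertical) against the chromosome's share of nuclear genome length in percent (horizontal), for gene-free mtDNA fragments (red points, bars are 95% Wilson intervals) and gene-bearing ones (blue-grey crosses), in glycerol lactate (left) and galactose (right). The line marks equal shares, and all 16 chromosomes lie near it in both libraries.

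Restricted to pairs of at least 2 counts, 3 chromosomes passed the threshold between the classes in glycerol lactate. Chromosome II took 5.95% of gene-free against 7.67% of gene-bearing counts (adjusted p = 4.6e-05, Fisher's exact test). Chromosome V took 5.36% against 4.33% and chromosome XIV took 7.27% against 6.06% (Fisher's exact test, adjusted p = 0.0056 for each). In galactose 0 of 16 passed. Each pair enters this test with at least 2 counts, which the test takes as independent although counts within a pair are not. The pairs themselves were not tested by chromosome, so these p-values do not establish a difference between the classes.

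Gene-free mtDNA fragments were joined to gene-free nuclear fragments more often than gene-bearing mtDNA fragments were. Nuclear partners without a gene, tRNA or rRNA took 8.56% (8.31 to 8.82) of gene-free counts against 6.56% (6.32 to 6.82) of gene-bearing counts in glycerol lactate (Fisher's exact test, odds ratio 1.33, p = 2.0e-27). In galactose they took 8.49% (8.02 to 8.99) against 6.18% (5.78 to 6.59), odds ratio 1.41, Fisher's exact p = 6.1e-13. Such fragments numbered 1158 of 13593, or 8.52%, and held 3.23% of the nuclear length. Their median length was 179 bp, against 615 bp for nuclear fragments with a gene.

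Partner length moved with this difference. The count-weighted median length of the nuclear partner was 707 bp for gene-free and 960.0 bp for gene-bearing mtDNA fragments in glycerol lactate, and 663 against 998 bp in galactose. Partners below 100 bp took 7.18% (6.95 to 7.41) of gene-free against 4.69% (4.48 to 4.91) of gene-bearing counts in glycerol lactate, and 12.4% against 7.43% in galactose. Among the gene-free fragments themselves, the median partner length in galactose was 401 bp for those below 100 bp, 583 bp from 100 to under 300 bp, 715 bp from 300 to under 600 bp and 843 bp at 600 bp and over. In glycerol lactate it was 632, 666, 684 and 831 bp in the same classes. Shorter gene-free fragments were thus paired with shorter nuclear fragments in each library, and the medians spanned a wider range in galactose.

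Within classes of partner length the difference in partners without a gene was small. In partners below 100 bp it was 29.1% for gene-free against 28.2% for gene-bearing mtDNA fragments in glycerol lactate (Fisher's exact p = 0.514) and 24.9% against 22.9% in galactose (p = 0.258). In partners of 600 bp and over it was 2.71% against 2.40% in glycerol lactate (Fisher's exact p = 0.023) and 2.61% against 2.43% in galactose (p = 0.504). None of the 8 such comparisons passed after adjustment over the 48 tests of partner features by length, and the lowest adjusted p among them was 0.155. In 1 of the 8, partners from 300 to under 600 bp in galactose, the share was lower for gene-free fragments (147 of 2174 counts, against 156 of 1950).

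**Figure D5:**
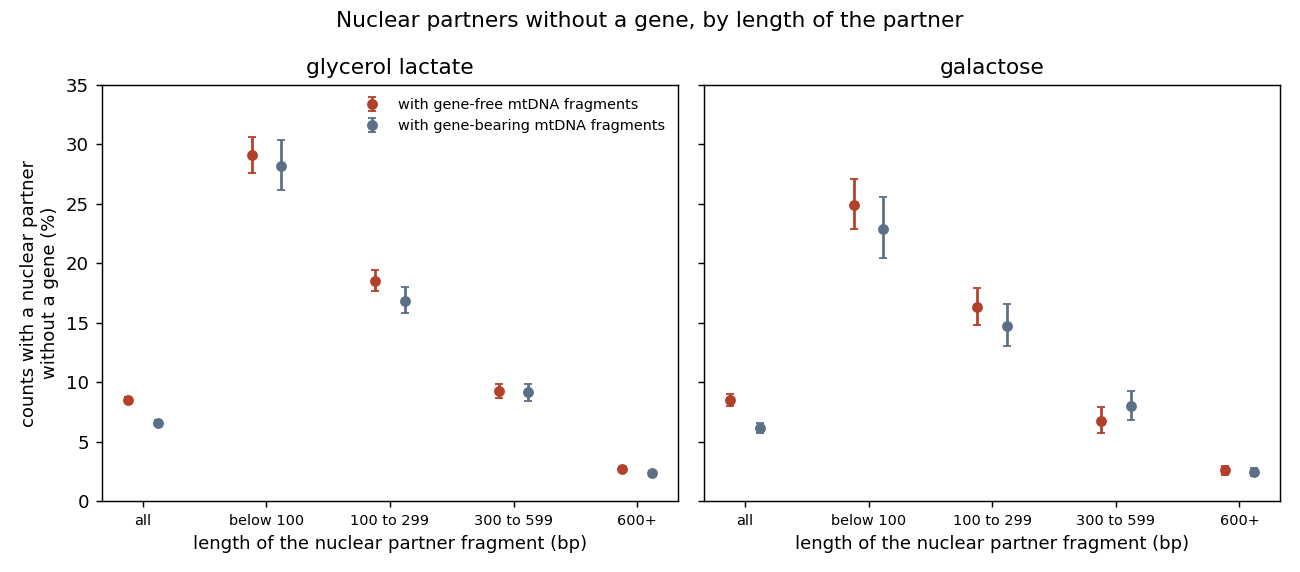
Percent of Mito-nDNA counts whose nuclear partner names no gene, tRNA or rRNA (vertical), for all partners and by the length of the nuclear partner in bp (horizontal), with gene-free (red) and gene-bearing (blue-grey) mtDNA fragments in glycerol lactate (left) and galactose (right); bars are 95% Wilson intervals. The classes differ over all partners (8.56% against 6.56% and 8.49% against 6.18%), while within each length class the intervals overlap.

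Other features of the partners ran the opposite way. Long terminal repeats of retrotransposons took 2.43% of gene-free against 3.15% of gene-bearing counts in glycerol lactate and 2.05% against 3.11% in galactose. Replication origins took 2.82% against 3.67% in glycerol lactate and 2.63% against 3.78% in galactose. Nuclear tRNA genes took 2.69% against 3.01% in glycerol lactate and 2.03% against 2.60% in galactose, and centromeres 0.156% against 0.245% and 0.141% against 0.280%. Each of these 4 passed at an adjusted p under 0.05 in each library, over 12 tests (Fisher's exact test, Benjamini-Hochberg). Telomeric regions did not pass Fisher's exact test in either library, with 0.231% against 0.286% in glycerol lactate (adjusted p = 0.141) and 0.235% against 0.258% in galactose (adjusted p = 0.804).

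These features lie on longer fragments: nuclear fragments with a long terminal repeat were 2.33% of all by number and 6.01% by length, and those with a replication origin 2.34% and 5.19%. Among partners of 600 bp and over, long terminal repeats still took 3.71% of gene-free against 4.30% of gene-bearing counts in glycerol lactate (adjusted p = 0.035, Fisher's exact test over 48 tests) and 3.48% against 4.45% in galactose (adjusted p = 0.041). Replication origins took 4.45% against 5.02% in glycerol lactate (Fisher's exact test, adjusted p = 0.041), and 297 of 6752 against 481 of 9040 counts in galactose (adjusted p = 0.0996). For tRNA genes and centromeres no difference passed in this length class.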

How the data were processed

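Chromatin of BY4741 cells was cross-linked, cut with MspI and ligated, and the ligation products were sequenced as 38 bp paired ends per the labels. The authors combined the sequences of 2 biological replicates per medium, aligned them to the S288 scaffold (SOAP, no mismatch allowed) and built the network of fragment pairs in Topography 1.19. They deposited counts per fragment pair, without normalization, in separate tables for uniquely mapped and for all mapped sequences of each medium. Counts of the uniquely mapped tables were used here unless stated. Every pair of different fragments stood in both orders. Each Mito-nDNA pair was counted once, and a pair of 2 mitochondrial fragments was counted once for each of them.

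Fragments were classed by the features that overlap them in the annotation column. A fragment naming no gene, rRNA or tRNA was gene-free. The rDNA of chromosome XII, the 2-micron plasmid and the controls were left out of Mito-nDNA pairs. Intervals are at 95%, by Wilson's method for shares and on the log scale for ratios. They cover counting error only and take every count as independent, although copies made by amplification may be among them. Differences were tested with two-sided Fisher's exact tests, with Benjamini-Hochberg adjustment over each family. With 1 combined library per medium there is no error between replicates, and a test between the media compares these libraries. The functions were tested on simulated data.

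The fragments named are, in each library, the 5 gene-free fragments with the highest counts, the 5 highest and the 3 lowest per kb among those of at least 100 bp, the 5 gene-free pairs with the highest counts (ties by the count in the other library, then by position), and the 3 nuclear fragments that rank highest by their sum over gene-free fragments. The members, lists and tests were chosen with earlier results of these data known. Alternatives covered the mapping, short fragments, other features, rRNA, counts of 1, the highest pairs, the cut-off and the thresholds between libraries. Base composition and motifs were not analysed here, since no sequence of this build was at hand. The glucose network was not analysed here.

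The scripts ran on scipy 1.17.1, pandas 2.3.3, numpy 2.4.6 and matplotlib 3.10.9 under Python 3.11.15.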

Additional observations from a re-analysis of the deposited data

Results flagged for a closer look

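The gene-free share of Mito-nDNA counts differed between the libraries: it was 7.35 percentage points higher in glycerol lactate (55.8%) than in galactose (48.4%), by Fisher's exact test between the 2 libraries.

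Among all mapped sequences 1 gene-free pair stood far above the others. Mt 941-2099, upstream of the 15S rRNA, had 1117 counts in glycerol lactate and 1119 in galactose with chromosome IV 544444-545214, a 771 bp fragment without a gene between NRG1 and HEM13. Among uniquely mapped sequences the same pair had 4 counts in glycerol lactate and 1 in galactose. It made up 1.53% of the all mapped gene-free counts in glycerol lactate and 4.44% in galactose. The next pair had 94 counts in glycerol lactate (Mt 35831-36204 with the GLT1 fragment) and 84 in galactose (Mt 4565-6222 with chromosome X 450094-452135, which overlaps POL31 and SUI2).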

How the results depend on the processing

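No paired analysis was possible because each medium has 1 library that combines 2 biological replicates, and for the same reason no replicate could be left out. Of 86 comparisons with an alternative, 68 kept their direction and side of the threshold or stayed within the range allowed. The density ratio of gene-free over gene-bearing fragments turned to 0.437 in glycerol lactate and 0.325 in galactose per fragment in place of per kb, since gene-free fragments are shorter, and was 1.03 in galactose with counts of at least 2, where its interval included 1 (the cause was not tested). Gene-free pairs numbered 4495 in glycerol lactate and 516 in galactose at a cut-off of 2, 69 and 2 at a cut-off of 4, and 973 and 265 among all mapped sequences at 3. Their share of pairs was 51.9% in glycerol lactate at a cut-off of 2, 39.7% in glycerol lactate and 18.2% in galactose at 4, and 51.9% and 58.8% among all mapped sequences. Against chromosome length, 10 chromosomes passed in glycerol lactate, and with counts of at least 2 against gene-bearing fragments 3 did, in place of 0. At 2-fold between the libraries, 2 gene-free fragments were higher and 0 were lower in glycerol lactate. Counts of a single pair were at most 8 and 4, so differences in single pairs between the libraries were not resolvable at this depth.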
